A study of Homo sapiens with 11 samples.

Results

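The EGR, FOS and JUN immediate-early genes are described here as 10 genes: EGR1, EGR2, EGR3, FOS, FOSB, FOSL1, JUN, JUNB, JUND and IER2. They were taken by gene symbol from the 38557 genes of the count table, and the group was selected on the measured fall of EGR1 under MI-503 in these libraries. The levels of EGR1 and the members' values of MI-503 against DMSO are therefore given as a description, with no p-value, and the counts of members past the threshold there support nothing. All libraries came from MOLM-13, an established human acute myeloid leukemia cell line that carries a KMT2A rearrangement. MI-503 blocks the contact between menin and KMT2A, and PR-957 (ONX-0914) inhibits PSMB8, a catalytic subunit of the immunoproteasome. Cells were kept for 72 hours with DMSO as the diluent (4 libraries), with MI-503 at 1 µM (4 libraries), or with MI-503 at 1 µM together with PR-957 at 100 nM (3 libraries, replicates 1, 2 and 4; called the combination here). Libraries of PR-957 alone were not analysed here, so the effect of PR-957 could be read only in cells that also received MI-503.

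Immediate-early genes are switched on within minutes of a stimulus without the need for new protein. Growth factor and stress signals reach them through the MAP kinases, which act on serum response factor (SRF) and its ternary complex partners at CArG boxes and on factors of the CREB/ATF class at cyclic AMP response elements. EGR1, EGR2 and EGR3 encode zinc finger transcription factors, and EGR1 is known for its rise during monocytic differentiation. FOS, FOSB and FOSL1 encode FOS proteins, which bind DNA only as dimers with JUN, JUNB or JUND, and these dimers form the factor AP-1. IER2 encodes a nuclear protein induced with them.

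The 11 libraries held 18891243 to 41153974 counts. Levels are CPM (counts scaled to library size) scaled with TMM factors of 0.956 to 1.056, and levels of different genes are compared only per kilobase of exon. Of 8 myeloid markers, 7 had a mean above 1 CPM, and their summed level was 1522 to 4452 CPM, while CD34 was near 0 with a mean of 0.113 CPM. Markers of T cells, erythroid cells and fibroblasts had 0 of 3 genes above 1 CPM each, and markers of epithelial cells had 1 of 3, KRT8 at 8.34 CPM. Replicate 1 of the combination stood apart. Its counts differed from those of replicates 2 and 4 by a chi-square of 19.4 and 33.3 for each degree of freedom, whereas the other replicate pairs of any group lay between 1.71 and 5.97. Calls of the combination that changed without that library are therefore also given without it, as are the counts of the gene lists that changed. The labels do not say that replicates were separate cultures, so p-values measure the spread between these libraries, which may be technical. In bulk RNA, fewer cells of a type and less RNA per cell cannot be told apart.

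The start regions of 8 of the 10 members were found in the RefSeq promoter table (GRCh38.p14). EGR1, FOS, JUN and JUND are shown because the results turn on them. Each sequence is the 250 bases before the annotated start, 5′ to 3′ on the strand of the gene. Capitals mark CArG boxes and the motif TGACG (the core of the cyclic AMP response element, read on both strands) in EGR1 and FOS, a MEF2 site and the variant element TGACATCA in JUN, and the full element TGACGTCA and a separate TGACG in JUND.
EGR1, chr5:138465229-138465478, plus strand: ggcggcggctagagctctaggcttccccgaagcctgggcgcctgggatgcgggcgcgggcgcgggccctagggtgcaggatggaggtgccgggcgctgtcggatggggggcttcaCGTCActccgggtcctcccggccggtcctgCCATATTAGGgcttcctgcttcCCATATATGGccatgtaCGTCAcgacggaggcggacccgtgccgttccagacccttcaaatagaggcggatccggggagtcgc
FOS, chr14:75278578-75278827, plus strand: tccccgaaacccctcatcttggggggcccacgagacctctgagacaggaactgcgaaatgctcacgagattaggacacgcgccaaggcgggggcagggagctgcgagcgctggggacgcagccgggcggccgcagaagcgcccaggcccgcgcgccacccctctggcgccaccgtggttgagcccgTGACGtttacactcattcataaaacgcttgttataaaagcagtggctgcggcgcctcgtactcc
JUN, chr1:58784048-58784297, minus strand: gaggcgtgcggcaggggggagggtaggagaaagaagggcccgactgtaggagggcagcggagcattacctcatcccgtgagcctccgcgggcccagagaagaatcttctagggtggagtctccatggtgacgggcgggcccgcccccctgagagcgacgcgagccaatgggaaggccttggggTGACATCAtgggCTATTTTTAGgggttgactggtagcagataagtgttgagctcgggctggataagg
JUND, chr19:18281623-18281872, minus strand: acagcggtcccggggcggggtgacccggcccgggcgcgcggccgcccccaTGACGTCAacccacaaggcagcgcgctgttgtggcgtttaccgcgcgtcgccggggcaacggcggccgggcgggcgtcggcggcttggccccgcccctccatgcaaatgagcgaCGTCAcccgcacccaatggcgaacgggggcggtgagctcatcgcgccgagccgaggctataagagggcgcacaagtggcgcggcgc

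The window of EGR1 held 2 CArG boxes, at 105 to 96 and at 83 to 74 bases before the start. Of 35116 promoter windows of the same length, 1.16% held at least 1 CArG box. The window of EGR1 also held 2 copies of TGACG, at 135 to 131 and 66 to 62 bases before the start, a motif found in 21.2% of all windows, and 1 copy of the EGR motif GCGNGGGCG at 198 to 190 bases, found in 8.41% of all windows. The window of FOS held TGACG at 64 to 60 bases and no CArG box within these 250 bases. The window of JUN held a MEF2 site at 55 to 46 bases (0.515% of all windows), TGACATCA at 67 to 60 bases (2.37%) and TGACG at 123 to 119 bases. The window of JUND held TGACGTCA at 200 to 193 bases (1.65%), which overlaps a TGACG on each strand, and a further TGACG at 86 to 82 bases. Of 3 windows listed for EGR2, 1 held a CArG box, and FOSB, JUNB and IER2 held 1 TGACG each. The AP-1 motif TGANTCA was in the window of none of the 8 matched members and in 6.57% of all windows. That pattern does not match the TGACATCA in the window of JUN, so other forms of the AP-1 motif were not counted. These matches describe letters and were not tested as binding sites.

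EGR1 (hg38, chromosome 5, 138465479 to 138469303, plus strand) was the member that MI-503 moved most. In DMSO its level was 26.1, 8.87, 19.9 and 12.9 CPM in replicates 1 to 4. In MI-503 it was 1.57, 1.63, 3.84 and 2.87 CPM, and in the combination it was 2.12, 2.56 and 1.86 CPM in replicates 1, 2 and 4. All 7 treated libraries lay below the lowest DMSO library, while the MI-503 and combination libraries overlapped. The means were 16.9 ± 7.60 CPM (SD, n = 4) in DMSO, 2.48 ± 1.09 CPM (n = 4) in MI-503 and 2.18 ± 0.353 CPM (n = 3) in the combination. The log2 fold change of MI-503 against DMSO was −2.80 (SE 0.30, 95% interval −3.45 to −2.16), a level 6.99-fold lower. Of 14683 genes tested, 4 had a lower fitted value. Among these were LOC101928731, MIR210HG and HIF1A-AS3, with means in DMSO of 0.914, 2.76 and 0.541 CPM, each below that of EGR1. The log2 fold change of the combination against DMSO was −2.99 (SE 0.34, interval −3.70 to −2.27), or 7.93-fold lower, and 22 genes had a lower value. The combination differed from MI-503 by −0.18 (SE 0.40), with an interval from −1.03 to 0.67 that holds both lower and higher levels.

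EGR2 and EGR3 were close to the limit of detection. EGR2 (chromosome 10, 62811996 to 62819167, minus strand) had 3 to 9 counts in DMSO libraries, 3 to 6 in MI-503 and 3 to 6 in the combination, and it did not pass the filter on low counts. EGR3 (chromosome 8, 22687659 to 22693480, minus strand) had 11, 9, 14 and 19 counts in DMSO, 5, 4, 7 and 3 in MI-503, and 11, 9 and 10 in the combination. It passed the filter through 2 DMSO libraries and 1 combination library, with no MI-503 library over the limit of 0.413 CPM. All 4 DMSO levels of EGR3, 0.371 to 0.902 CPM, lay above the 4 MI-503 levels, 0.116 to 0.289 CPM, and the log2 fold change was −1.62 (SE 0.40). The combination held 0.260, 0.452 and 0.372 CPM and overlapped both other groups. Its log2 fold change against DMSO was −0.74 (SE 0.38, interval −1.54 to 0.06, edgeR quasi-likelihood adjusted p = 0.0981), and against MI-503 it was 0.89 (SE 0.46, interval −0.08 to 1.86, edgeR adjusted p = 0.124). Of the exon bases of EGR3, 11.65% are shared with LOC107986924, so part of its small counts is uncertain. No exon base of the other members is shared with another gene.

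**Figure D1:**
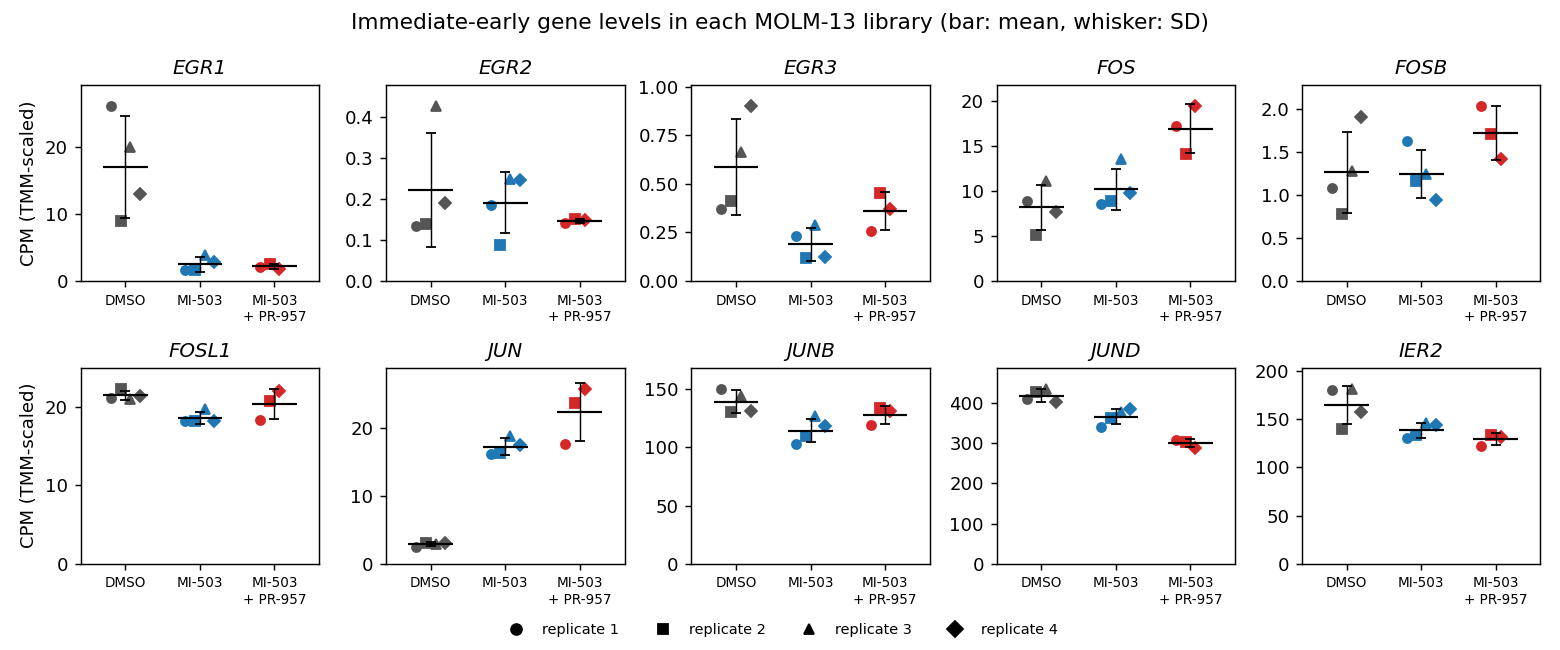
CPM of each of the 10 members (1 panel each, linear axis from 0) in every library of DMSO, MI-503 and the combination. The bar is the group mean, the whisker the SD, and the marker shape gives the replicate number. EGR1 was at 8.87 CPM or more in all DMSO libraries and at 3.84 CPM or less in all others, whereas JUN was at 3.12 CPM or less in DMSO and at 16.2 CPM or more in all others.

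FOS (chromosome 14, 75278828 to 75282230, plus strand), the founding member of its family and a target of SRF, was highest in the combination. Its level in DMSO was 8.91, 5.10, 11.1 and 7.64 CPM. In MI-503 it was 8.52, 8.84, 13.5 and 9.78 CPM, and in the combination it was 17.2, 14.0 and 19.4 CPM. DMSO and MI-503 libraries overlapped, and all 3 combination libraries lay above all 8 others. The group means were 8.18 ± 2.49, 10.2 ± 2.29 and 16.9 ± 2.70 CPM. FOS rose in the combination against DMSO by 1.05 on the log2 scale (SE 0.19, interval 0.65 to 1.45, edgeR adjusted p = 1.04e-04), a 2.07-fold higher level. It rose against MI-503 by 0.74 (SE 0.18, interval 0.36 to 1.13, edgeR adjusted p = 0.00294), or 1.68-fold. For MI-503 against DMSO the value was 0.31 (SE 0.19, interval −0.08 to 0.70), which was not called. The combination and MI-503 are each set against the same DMSO libraries, so these comparisons are not independent.

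FOSB (chromosome 19, 45467996 to 45475179, plus strand), a second induced FOS protein, stood at 0.781 to 1.90 CPM in DMSO, 0.942 to 1.62 CPM in MI-503 and 1.41 to 2.03 CPM in the combination, with 17 to 86 counts behind each value. Its groups overlapped in every comparison. The combination differed from DMSO by 0.48 (SE 0.25, interval −0.05 to 1.01, edgeR adjusted p = 0.105) and from MI-503 by 0.50 (SE 0.25, interval −0.02 to 1.03, edgeR adjusted p = 0.108). The value of MI-503 against DMSO was −0.02 (SE 0.25), and its sign turned under RLE and upper-quartile scaling.

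FOSL1 (chromosome 11, 65892049 to 65900526, minus strand), a FOS protein that lacks the transactivation domain of FOS, changed by less than EGR1, FOS or JUN. In DMSO it stood at 21.2, 22.3, 21.0 and 21.4 CPM, and in MI-503 at 18.2, 18.2, 19.7 and 18.2 CPM. The 4 MI-503 libraries lay below the 4 DMSO libraries, with a log2 fold change of −0.21 (SE 0.07). With upper-quartile factors (−0.15) and with a stricter filter (−0.14) FOSL1 was not called. In the combination FOSL1 was at 18.3, 20.8 and 22.0 CPM and overlapped both groups. The combination differed from DMSO by −0.08 (SE 0.07, interval −0.23 to 0.07, edgeR adjusted p = 0.319) and from MI-503 by 0.13 (SE 0.07, interval −0.02 to 0.27, edgeR adjusted p = 0.143). Without replicate 1 of the combination, FOSL1 passed the test against MI-503, at 0.18 (edgeR adjusted p = 0.0307), and its value against DMSO changed sign to 0.02 (edgeR adjusted p = 0.827).

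JUN (chromosome 1, 58780791 to 58784047, minus strand), the strongest activator among the JUN proteins and a target of its own product, moved in the opposite direction to EGR1. In DMSO it stood at 2.53, 3.12, 2.85 and 3.08 CPM. In MI-503 it was at 16.2, 16.4, 18.9 and 17.6 CPM, and in the combination at 17.6, 23.7 and 25.8 CPM. Every treated library was above every DMSO library, and replicate 1 of the combination lay within the range of MI-503. The group means were 2.90 ± 0.273, 17.3 ± 1.22 and 22.4 ± 4.27 CPM. MI-503 differed from DMSO by 2.58 on the log2 scale (SE 0.13, interval 2.31 to 2.86), a 5.99-fold higher level, and 46 of the genes tested had a higher value. JUN rose in the combination against DMSO by 2.95 (SE 0.13, interval 2.67 to 3.23, edgeR adjusted p = 1.09e-11), or 7.72-fold, and 85 genes had a higher value. It rose against MI-503 by 0.36 (SE 0.11, interval 0.14 to 0.59, edgeR adjusted p = 0.0101), or 1.29-fold. That last call rested on single libraries. It was lost without replicate 2 of the combination (0.28, edgeR adjusted p = 0.0804) or without replicate 4 (0.20, edgeR adjusted p = 0.14), and it grew to 0.50 (edgeR adjusted p = 1.61e-05) without replicate 1.

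JUNB (chromosome 19, 12791486 to 12793315, plus strand), which can oppose JUN in proliferation and is a known restraint on myeloid growth, was lower in MI-503 and intermediate in the combination. Its level was 150, 131, 144 and 132 CPM in DMSO, 103, 109, 127 and 118 CPM in MI-503, and 119, 134 and 131 CPM in the combination. The DMSO and MI-503 libraries did not overlap, and the log2 fold change was −0.28 (SE 0.06). The combination overlapped both groups. It differed from DMSO by −0.12 (SE 0.07, interval −0.27 to 0.02, edgeR adjusted p = 0.123) and from MI-503 by 0.16 (SE 0.07, interval 0.02 to 0.30, edgeR adjusted p = 0.0594). The last value passed the test without replicate 1 of the combination (0.19, edgeR adjusted p = 0.0193).

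JUND (chromosome 19, 18279694 to 18281622, minus strand), the JUN protein that most cells make without a stimulus, had the highest level of all members and stepped down with each treatment. It stood at 410, 427, 435 and 402 CPM in DMSO. In MI-503 it was at 341, 362, 378 and 384 CPM, and in the combination at 308, 302 and 288 CPM. The groups did not overlap in any of the comparisons. The means were 418 ± 15.4, 366 ± 19.2 and 299 ± 9.96 CPM, and MI-503 differed from DMSO by −0.19 (SE 0.04). JUND fell in the combination against DMSO by 0.48 on the log2 scale (SE 0.05, edgeR adjusted p = 1.68e-07). It fell against MI-503 by 0.29 (SE 0.05, edgeR adjusted p = 1.18e-04). Both calls were kept when any library was left out.

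IER2 (chromosome 19, 13150411 to 13154911, plus strand) was at 180, 140, 182 and 158 CPM in DMSO, 130, 133, 146 and 144 CPM in MI-503 and 122, 133 and 132 CPM in the combination. The MI-503 libraries overlapped replicate 2 of DMSO, and the log2 fold change was −0.25 (SE 0.07). IER2 fell in the combination against DMSO by 0.36 (SE 0.08, interval −0.52 to −0.20, edgeR adjusted p = 4.97e-04). Against MI-503 the value was −0.10 (SE 0.07, interval −0.26 to 0.05, edgeR adjusted p = 0.269), and the groups overlapped.

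**Figure D2:**
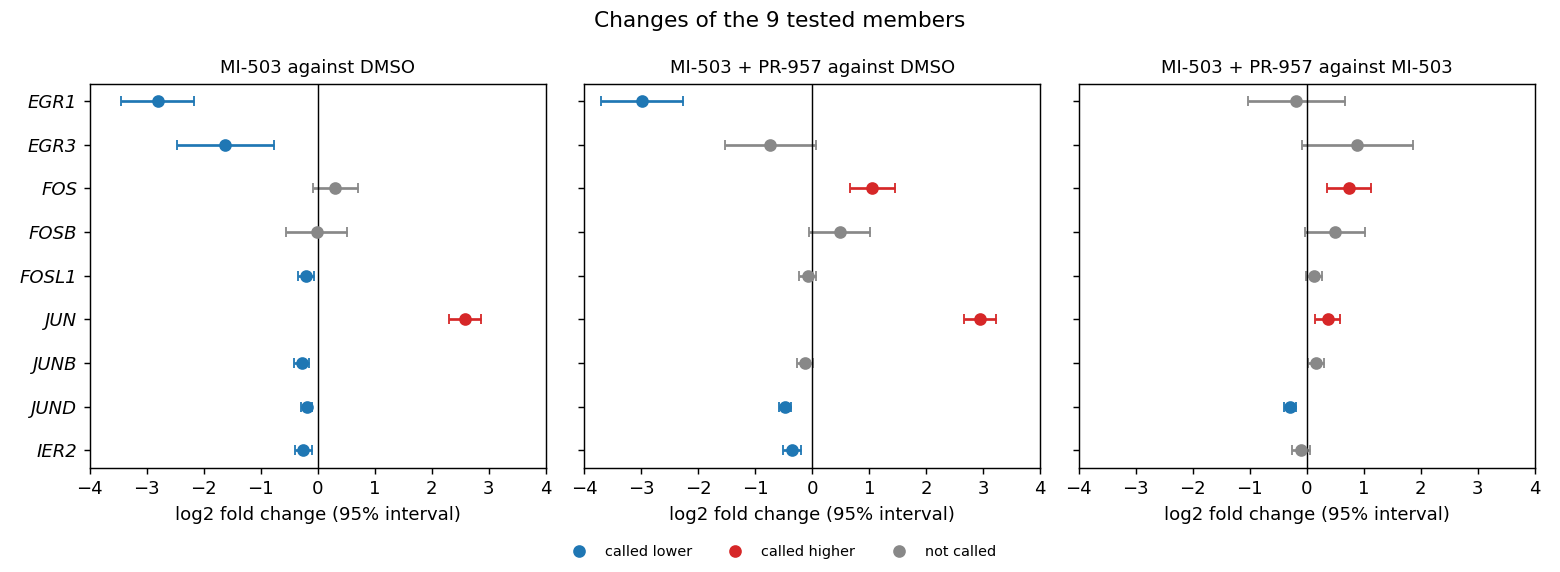
Log2 fold change of the 9 tested members in the 3 comparisons, from the edgeR quasi-likelihood fit. Points are estimates, whiskers 95% intervals, and colours mark members called lower, called higher or not called at an adjusted p under 0.05. EGR1 at −2.80 and JUN at 2.58 lie farthest from 0 in MI-503 against DMSO, and FOS, JUN and JUND are the members called in the combination against MI-503.

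Of the 9 members tested, 7 were past the threshold (called: an adjusted p under 0.05) in MI-503 against DMSO, 6 lower and 1 higher, and 2 were not called, FOS and FOSB. In that comparison 51.4% of all genes tested were called, 29.3% lower and 22% higher, and since it chose the members nothing is read from their count. The groups did not overlap for 6 members (50.3% of all genes). The median log2 fold change of the tested members was −0.21, beside −0.03 over all genes. In the combination against DMSO 5 of 9 were called, with JUND, IER2 and EGR1 lower and FOS and JUN higher (EGR1 as a description only, since the same DMSO libraries chose it), beside 64.5% of all genes (32.8% lower and 31.7% higher), and for those 5 the groups did not overlap, beside 60.5% of all genes. The medians were −0.12 for the members and 0.01 for all genes. In the combination against MI-503 3 of 9 were called, FOS and JUN higher and JUND lower, beside 47.4% of all genes (23.8% lower and 23.6% higher), and the groups did not overlap for 2, beside 47.6%. The medians were 0.16 and 0.00. With 9 genes, no difference from the share of all genes is read from these counts. Without replicate 1 of the combination the members called against DMSO stayed at 3 lower and 2 higher (63.4% of all genes were called), while against MI-503 they were 1 lower and 4 higher (49.3%).

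The order of the members by level changed mostly through EGR1, FOS and JUN. Per kilobase of exon, the DMSO means were 217 CPM for JUND, 78.1 for IER2, 76.1 for JUNB, 11.7 for FOSL1, 5.40 for EGR1, 3.89 for FOS, 0.889 for JUN, 0.334 for FOSB, 0.112 for EGR3 and 0.0705 for EGR2. The libraries of IER2 and JUNB overlapped, as did those of EGR1 and FOS and those of EGR3 and EGR2. In MI-503 JUN, at 5.30 CPM per kilobase, had passed EGR1, at 0.790, and overlapped FOS, at 4.83. In the combination FOS, at 8.03, and JUN, at 6.87, again overlapped, and EGR1 was at 0.695, still above FOSB at 0.455. There all libraries of JUNB, at 65.2 to 73.3, lay above those of IER2, at 57.7 to 63.2. The ratio of JUN to EGR1 per kilobase was 0.200 in DMSO (0.0936 to 0.339 over libraries), 7.57 in MI-503 (4.73 to 9.94) and 10.1 in the combination (7.98 to 13.4). JUN RNA was thus below EGR1 RNA in every DMSO library and above it in every treated library.

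Within the JUN family the share of JUN was higher in both treated groups, and that of JUNB was higher in the combination. JUND stayed the main transcript. Summed per kilobase, the 3 JUN genes had 281 to 306 CPM in DMSO, 238 to 271 in MI-503 and 229 to 237 in the combination. JUN was 0.303 ± 0.0347% of that sum in DMSO, 2.06 ± 0.0715% in MI-503 and 2.96 ± 0.565% in the combination. JUND was 73.8 ± 1.42%, 73.7 ± 0.943% and 66.9 ± 2.14%, and JUNB 25.9 ± 1.45%, 24.2 ± 0.891% and 30.2 ± 1.59%. Each JUN transcript was matched by 246 of JUND in DMSO, by 35.9 in MI-503 and by 23.3 in the combination (means of the ratio per kilobase). For the members FOS, FOSB and FOSL1, the sum was 14.8 to 17.0, 14.4 to 17.5 and 18.5 to 21.6 CPM per kilobase. FOS was 24.2 ± 6.11%, 31.4 ± 3.86% and 40.9 ± 4.13% of that sum. FOSL1 made up most of the rest, at 73.7 ± 6.30%, 66.5 ± 3.53% and 56.7 ± 4.16%, and FOSB 2.09 to 2.35%. FOSL2, a further FOS gene, is not a member and was left out of the sum. Its means were 147, 170 and 149 CPM, not scaled for length, so these are not shares of the whole FOS family. The tests of the shares are those of the single genes above, since no separate test was run.

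**Figure D3:**
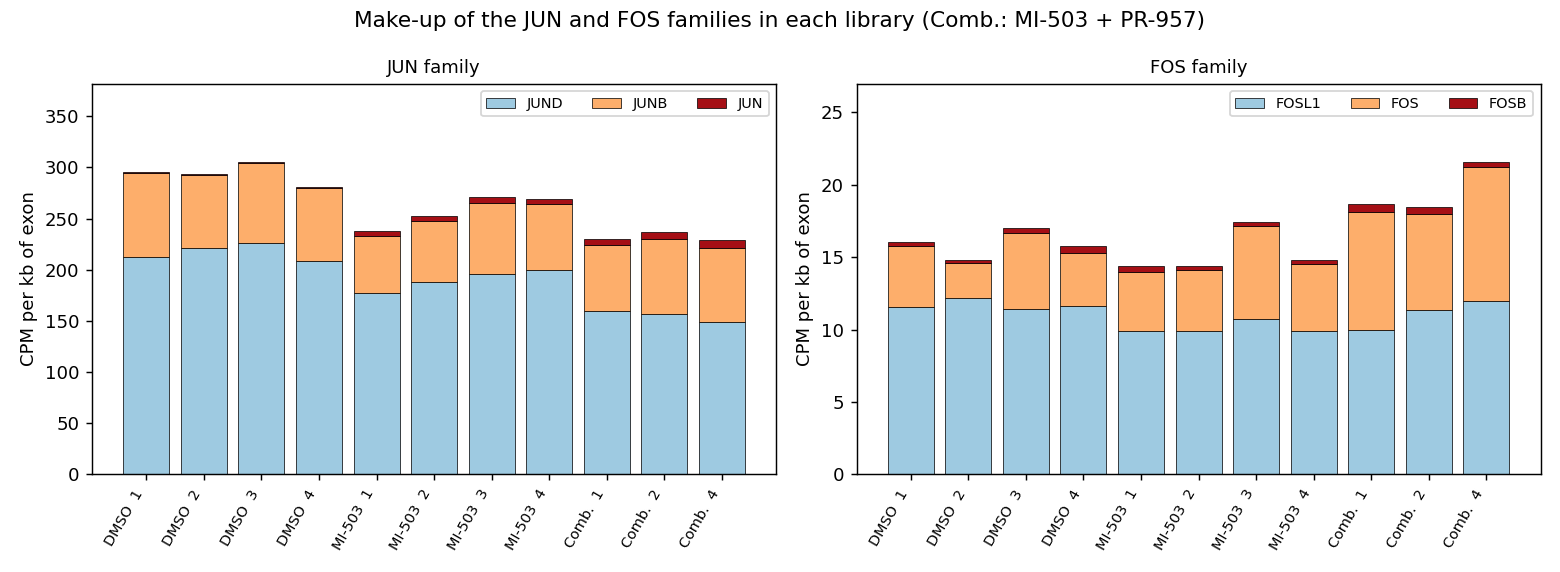
Stacked level (CPM per kilobase of exon) of the JUN family (JUN, JUNB, JUND) and of FOS, FOSB and FOSL1 in each of the 11 libraries. Axes are linear from 0, and the panel headed FOS family leaves out FOSL2. JUND made up 65.3 to 75.4% of the JUN family in every library. FOS grew from 16.4 to 30.9% of the sum of FOS, FOSB and FOSL1 in DMSO to 36.2 to 43.8% in the combination.

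Several members varied more between replicates than genes of like level. The SD of EGR1 within groups was 0.58 on the log2 scale, and of 1045 genes of like level, with a median of 0.14, 0% varied more. For FOS the SD was 0.36, with a median of 0.12 among 1365 like genes, of which 1.03% varied more. IER2 followed with 0.13 (6.87% of like genes varied more), then JUNB with 0.11 (11.2%) and JUN with 0.18 (12.2%). FOSB, JUND and EGR3 were less unusual, with 17.9%, 45.9% and 46.7% of like genes varying more. FOSL1, with an SD of 0.08, was exceeded by 70.5% of like genes.

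Part of this spread was shared in MI-503. By the chi-square given above, MI-503 replicates 1 and 2 (1.71) and replicates 3 and 4 (2.04) were the closest pairs of that group. The other MI-503 pairs lay between 3.43 and 4.68, so its libraries split in this way across genes and not only in the members. Of the 8 members with a mean of 1 CPM or more, replicate 3 was the highest MI-503 library for 6 (EGR1, FOS, FOSL1, JUN, JUNB and IER2) and replicate 1 the lowest for 6 (EGR1, FOS, JUN, JUNB, JUND and IER2). Over 12468 genes those libraries were highest for 31.4% and lowest for 31.8%. The full order of EGR1, replicate 3 above 4 above 2 above 1, was shared by 4 of the 7 other members (FOS, JUN, JUNB and IER2) and by 9.89% of genes. In DMSO replicate 2 was lowest for 5 members (EGR1, FOS, FOSB, JUNB and IER2; 32.9% of genes), and only JUNB had the full order of EGR1 (5.57% of genes). In the combination replicate 1 was lowest for 4 members (FOSL1, JUN, JUNB and IER2; 39.9% of genes), and 0 of 7 had the order of EGR1 (9.90% of genes). The members share libraries, so their deviations are not independent, and whether handling of the cells moved with them was not tested.

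**Figure D4:**
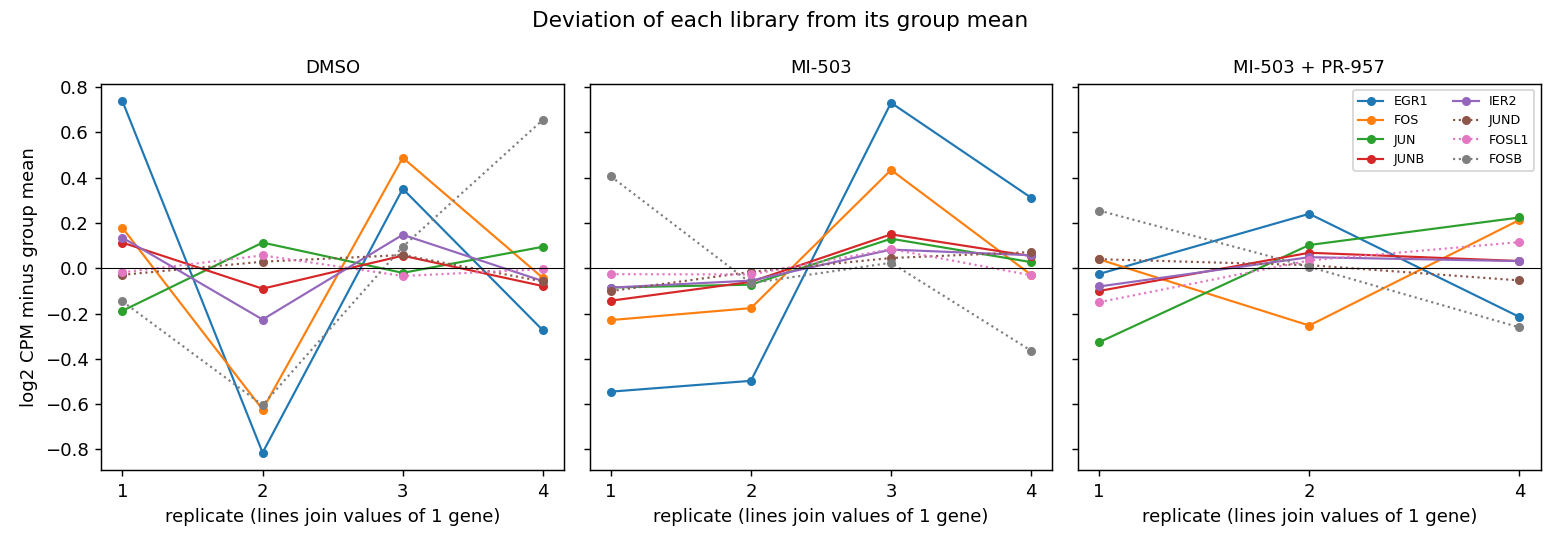
Log2 CPM of each library minus the mean of its group, for the members with a mean of 1 CPM or more, with 1 line per gene and 1 panel per group. The lines of EGR1, FOS, JUN, JUNB and IER2 all run from lowest in replicate 1 to highest in replicate 3 in MI-503, and the line of EGR1 spans the widest range in DMSO.

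The genes whose profile over the 11 libraries lay nearest to that of EGR1 were CDK6-AS1, MT2A, JMJD1C-AS1, TBC1D30 and RASD1, out of 12460 genes at a mean of 1 CPM or more. Nearness was the root-mean-square difference of log2 CPM after centring each gene, and it was 0.438, 0.468, 0.516, 0.544 and 0.580 for these 5. MT2A, a metallothionein, went from 23.7 ± 3.27 CPM in DMSO to 5.13 ± 0.861 in MI-503 and 2.79 ± 0.0893 in the combination. TBC1D30 went from 103 ± 27.4 to 14.8 ± 2.27 and 11.3 ± 2.60 CPM. RASD1, a small GTPase of the RAS family, went from 5.59 ± 0.989 to 1.05 ± 0.0776 and 0.902 ± 0.210 CPM. CDK6-AS1 and JMJD1C-AS1 are antisense genes, and counting without strand cannot separate reads where exons of opposite strands overlap. Whether their exons overlap those of CDK6 and JMJD1C was not checked. No member of the EGR, FOS or JUN group was among the candidates, by the rule used.

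The gene lists around the members were not tested as sets, and their counts of called genes stand beside 51.4% of all genes in MI-503 against DMSO, 64.5% in the combination against DMSO and 47.4% in the combination against MI-503. Other immediate-early genes moved in both directions. Of 28 listed, 22 were tested, and in MI-503 against DMSO 7 were lower and 8 higher, with a median of −0.01. In the combination against MI-503 4 fell and 12 rose, with a median of 0.21 beside 0.00 over all genes. PPP1R15A, which encodes a subunit of the phosphatase that reverses eIF2α phosphorylation, rose from 20.1 to 45.3 CPM (log2 fold change 1.17, edgeR adjusted p = 6.92e-10). KLF6, a zinc finger factor, rose from 35.1 to 70.5 CPM (1.01, edgeR adjusted p = 2.32e-09). RHOB, a small GTPase induced by stress, rose from 1.30 to 8.47 CPM (2.68, edgeR adjusted p = 2.46e-07). Each of those 3 had no overlap between the MI-503 and combination libraries. Against DMSO, 6 were lower and 11 higher in the combination. Without its replicate 1, 24 were tested, with 5 lower and 13 higher against MI-503 and 7 lower and 12 higher against DMSO. EGR4, IER3, NR4A3, CCN1, ARC and NPAS4 did not pass the filter on low counts with all libraries, and IER3 had 0 counts. CCN1 and ARC passed it without replicate 1 of the combination. Their values against MI-503 were then −0.90 and 1.68, on 83 and 78 counts over all libraries. These values are a description with no p-value, since both genes entered the fit only once that library was left out.

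The other dimer partners of AP-1 and the regulators that sit upstream moved by smaller steps. Of 10 partners 6 were tested, with 2 lower and 1 higher in each of the 3 comparisons. In the combination against MI-503 BATF3 (−0.51, edgeR adjusted p = 1.14e-04) and FOSL2 (−0.19, edgeR adjusted p = 6.32e-04) fell and ATF7 (0.29, edgeR adjusted p = 0.00207) rose. Without replicate 1 of the combination 7 partners were tested, with 2 lower and 2 higher in each comparison of the combination. Of the 10 SRF, ternary complex, CREB and EGR co-regulators, all tested, 5 were lower and 1 higher in MI-503 against DMSO, 5 and 2 in the combination against DMSO, and 3 and 1 in the combination against MI-503. In the last comparison ELK1, a ternary complex factor, fell (−0.47, edgeR adjusted p = 3.14e-06), as did MRTFA, an SRF coactivator (−0.22, edgeR adjusted p = 5.68e-04), and CREM, a cyclic AMP responsive factor, rose (0.60, edgeR adjusted p = 2.19e-04). Without replicate 1 the counts there were 4 lower and 1 higher. Of 17 MAP kinases and kinases upstream 15 were tested, with 6 lower and 3 higher in MI-503 against DMSO, 5 lower and 4 higher in the combination against DMSO, and 3 lower and 4 higher in the combination against MI-503. MAP2K2 (0.31, edgeR adjusted p = 3.04e-05) rose and RPS6KA3 (−0.29, edgeR adjusted p = 1.59e-04) fell. Without replicate 1 of the combination 6 kinases fell and 5 rose. RNA levels of kinases do not measure their activity.

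The ERK feedback genes, which dampen the same pathway or report on it, fell when PR-957 was added, in the comparison in which FOS and JUN rose. Of 13 genes, all tested, 2 were lower and 3 higher in MI-503 against DMSO, with a median of 0.00, and 9 were lower and 2 higher in the combination against DMSO, with a median of −0.56. Against MI-503, 11 fell and 1 rose in the combination, with a median of −0.48, and without replicate 1 of the combination 10 fell and 1 rose (10 lower and 2 higher against DMSO). ETV5 (−0.70, edgeR adjusted p = 8.2e-07) and ETV4 (−0.69, edgeR adjusted p = 1.73e-06), ETS factors induced by ERK, and CCND1, a D-type cyclin (−0.89, edgeR adjusted p = 4.19e-06), fell. The summed level of all 13 ERK feedback genes was 347 to 373 CPM in DMSO, 339 to 369 in MI-503 and 254 to 272 in the combination. In MI-503, where EGR1 was low, this sum overlapped that of DMSO, with 2 of the genes lower and 3 higher. Any link between these genes and the level of EGR1 was not tested.

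Heat shock genes and monocyte markers moved in the same comparisons. Of 8 cytosolic heat shock genes 5 were lower and 0 higher in MI-503 against DMSO, 3 were lower and 3 higher in the combination against DMSO, and 0 fell and 7 rose in the combination against MI-503, with a median of 0.49. BAG3, a cochaperone (0.81, edgeR adjusted p = 1.42e-08), and HSPH1, a chaperone of the HSP110 class (0.61, edgeR adjusted p = 2.28e-05), rose. HSPA1A had a value of 1.43 (edgeR adjusted p = 1.98e-06), but HSPA1A and HSPA1B are near-identical copies whose reads the counting could divide. Without replicate 1 of the combination 1 fell and 7 rose against MI-503, and 4 were lower and 3 higher against DMSO. The summed level of the list was 4035 to 4465 CPM in DMSO, 2661 to 2791 in MI-503 and 3032 to 3527 in the combination. Of 10 monocyte markers 8 were tested, and 7 were higher in MI-503 against DMSO, with a median of 1.24, as were 7 in the combination against DMSO, with a median of 1.75. In the combination against MI-503 5 rose and 1 fell. CSF1R, the receptor of M-CSF (0.67, edgeR adjusted p = 1.06e-06), LYZ, lysozyme (2.13, edgeR adjusted p = 8.11e-06), and CD68 (1.04, edgeR adjusted p = 1.30e-04) rose. FCGR1A fell (−0.53, edgeR adjusted p = 2.34e-04), and its value in the combination against DMSO was −0.19, which was not called. CD14 and FCN1, with 60 and 7 counts over all libraries, were not tested. The summed level of all 10 monocyte markers was 213 to 244 CPM in DMSO and 604 to 623 in MI-503. In the combination it was 873 to 2964 CPM, lowest in replicate 1. The part of either list in the levels of FOS, JUN and EGR1 was not tested.

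**Figure D5:**
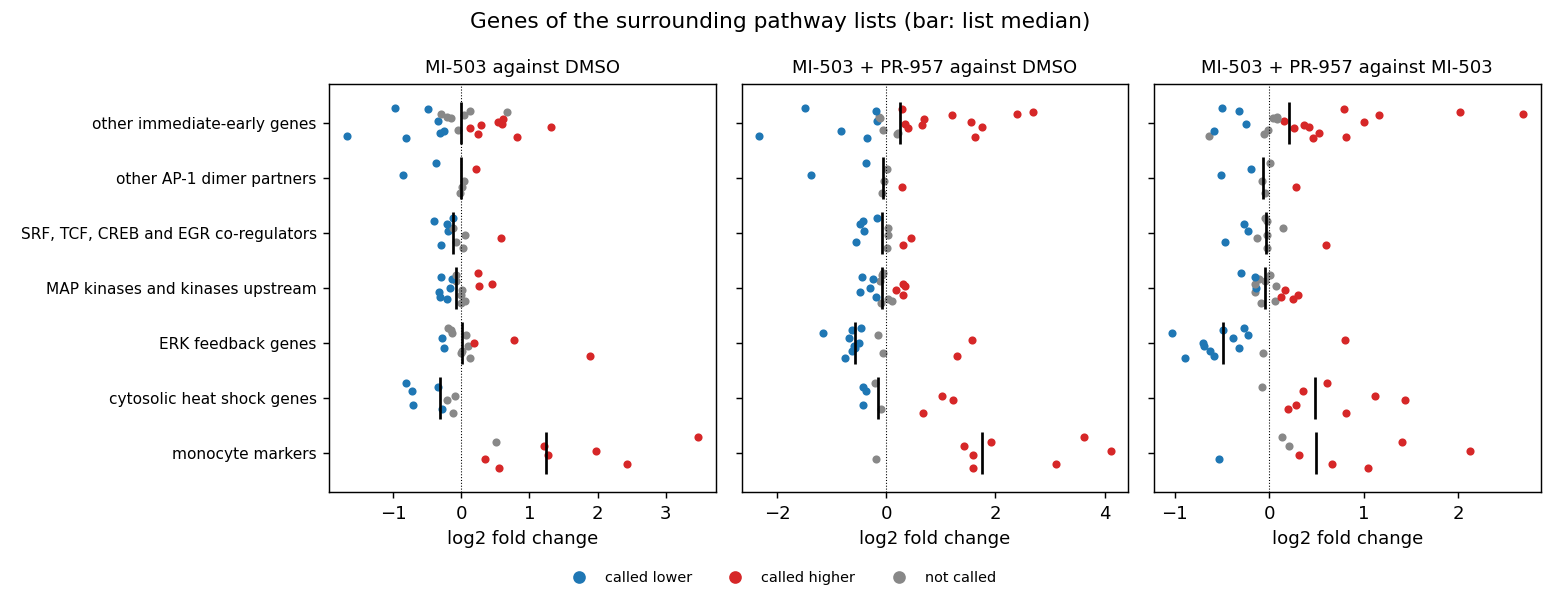
Log2 fold change of each tested gene of the 7 surrounding gene lists in the 3 comparisons, coloured by call, with a bar at the median of the list. The ERK feedback genes lie mostly below 0 in both comparisons of the combination (medians −0.56 and −0.48), and the heat shock genes move from a median of −0.32 in MI-503 against DMSO to 0.49 in the combination against MI-503.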

How the data were processed

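MOLM-13 RNA (TruSeq libraries, polyA RNA, 150-base paired reads) was measured in 11 libraries. The deposited values used here are raw counts per gene. According to the submitters' processing notes the authors trimmed reads with Trimmomatic 0.39, aligned them to hg38 with STAR 2.7.10a and counted with featureCounts 2.0.1. Per the file headers, read pairs were counted per gene over RefSeq exons without strand on filtered alignments, and the rule of that filter is not stated here. Without strand, reads from overlapping exons of antisense genes cannot be told apart. The joined table matched the single-library tables in all 424127 cells, and 0 columns belonged to other samples. The tables of the authors' own comparisons (fold changes, standard errors and p-values) were not used.

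Groups came from the sample labels. Genes with enough counts (filterByExpr, minimum count 10, minimum total 15) were kept, 14683 of 38557. Group means over all 11 libraries were fitted with edgeR 4.0.16 (TMM factors, glmQLFit, glmQLFTest) in R 4.3.3, with Benjamini-Hochberg adjustment over all genes tested and calls at 0.05. Fold changes are fitted values, SEs come from the F statistic, and levels are TMM-scaled CPM. Intervals are 95% and not adjusted. Depth was 18891243 to 41153974 counts, which leaves EGR2 and EGR3 with counts of 3 to 19 per library. Alternatives were RLE and upper-quartile factors, no or a stricter filter, only the groups compared, a replicate block, limma 3.58.1 voom, DESeq2 1.42.0 and leaving out each library. The code was tested on simulated data.

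The 10 members and all gene lists were chosen with earlier results of these data known. Named genes were all members, up to 3 genes per list with the smallest adjusted p in the combination against MI-503, and the 5 nearest profiles to EGR1. LOC101928731, MIR210HG, HIF1A-AS3, FCGR1A, CD14 and FCN1 were named after their values were seen. The levels of FOSL2 and the values of CCN1 and ARC were also added after they were seen. Some genes that these rules name are not reported here. Promoter windows came from RefSeq, 250 bases before each start.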

Additional observations from a re-analysis of the deposited data

Results flagged for a closer look

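Of 20 sets of 4 library values tested for a value far from the others, 1 was flagged, and chance flags about 1 in 20. The level of FOSL1 in replicate 3 of MI-503, 19.7 CPM, lay above the other 3 MI-503 libraries by 0.96 of the range of the group, and below all 4 DMSO libraries.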

How the results depend on the processing

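Of 499 comparisons of the 27 member values with an alternative, 469 kept their direction and side of the threshold, 4 lost a call, 12 gained one and 14 changed sign. The log2 fold changes of MI-503 against DMSO ranged from −3.09 to −2.50 for EGR1, and those of FOS and JUND in the combination against MI-503 kept their calls under all 19 alternatives (0.60 to 0.91 and −0.34 to −0.27). The value of FOSB in MI-503 against DMSO, near 0, was 0.00625 with RLE factors, 0.0418 with upper-quartile factors, 0.00203 with the replicate block, 0.0275 with only the groups compared, 0.0210 with limma-voom, 0.00563 with DESeq2, and −0.18 to 0.23 with each library left out. With each library left out, FOSL1 in the combination against DMSO ranged from −0.15 to 0.0187 and EGR1 in the combination against MI-503 from −0.37 to 0.10, positive only without replicate 3 of MI-503. Members called higher in MI-503 against DMSO were 2 without a filter, 2 under the replicate block, and 1 to 2 with each library left out, the second being FOS without replicate 3 of DMSO. Members called higher in the combination against MI-503 were 1 to 4, with 4 without its replicate 1 and 1 without its replicate 2 or 4, where JUN was lost. Members called lower in MI-503 against DMSO were 5 with upper-quartile factors, 5 with only the groups compared and 4 with a stricter filter, FOSL1 being lost under the first and the last. JUN in the combination against MI-503 had edgeR adjusted p from 1.61e-05 to 0.14. JUNB there passed with upper-quartile factors, no filter, a stricter filter, the block, and without replicate 3 of MI-503. EGR3 passed against DMSO in the combination without replicate 1 of DMSO (−0.93, edgeR adjusted p = 0.0461) and FOSB without replicate 4 (0.73, edgeR adjusted p = 0.0174). The cause was not tested. Deviations of same-numbered libraries were only weakly related and mixed in sign (r of −0.18 to 0.22 in 10 pairs, 3 above 0.1). The numbers were therefore not taken as pairs in the main fit, and the replicate block was kept as an alternative. With upper-quartile factors 54.2% of the genes called in MI-503 against DMSO were higher, against 42.9% with TMM, and the median of all genes moved by less than 0.1. List counts without replicate 1 of the combination were an alternative chosen after seeing the data. Small counts limit EGR2 and EGR3.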
